A study of Homo sapiens with 24 samples.

Results

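The genes described here encode proteins of epithelial cell-cell junctions. They are a list of 40 genes fixed by name. Of these, 9 belong to adherens junctions, 12 to tight junctions, 4 to polarity complexes and 13 to desmosomes, and ST14 and RAB25 have other epithelial roles. Of the 40 genes, 38 had enough counts to be tested, among 17453 tested genes of 34834 with a matched transcript. DSG3 and RAB25 were not tested because their counts were close to 0.

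The cells were SK-MES-1, an established human cell line from a squamous cell carcinoma of the lung, used here as a single line at low passage. After 3 h of serum starvation, TGFβ1 (2 ng/ml) was added to 1 arm, while the other arm stayed untreated. Each arm was sampled at 0, 8, 24 and 48 h with 3 biological replicates per time, which gave 24 libraries in 8 groups. The 0 h groups of both arms serve as a control comparison.

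As background, tight junctions seal the space between epithelial cells through claudins and occludin, which are held by ZO scaffold proteins. Adherens junctions couple cadherins and nectins to actin through catenins and afadin, and desmosomes couple desmosomal cadherins to keratin through plakoglobin, plakophilins and plakins. TGFβ is known to weaken these contacts in many epithelial cells during epithelial-to-mesenchymal transition (EMT), in which SNAI1, SNAI2 and ZEB1 act as repressors of junction genes.

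The libraries held between 46613589 and 77964234 estimated counts. Replicates differed beyond counting noise, with a chi-square per gene between 3.12 and 57.13, and replicate 2 of both arms at 0 and 24 h stood apart. Counts of genes are therefore also given without these 4 libraries, a choice made after the data were seen. The deposited tables carry 4 codes of unstated meaning, 1 per arm for 0 and 8 h and 1 per arm for 24 and 48 h, so that code and treatment cannot be told apart at 24 and 48 h. Of 7 squamous markers, KRT5, KRT6A and KRT14 stayed under 1 TPM (transcripts scaled to length and library) in every library, and TP63 was at 9.29 ± 0.755 TPM (SD, n = 3) in untreated cells at 0 h. At 48 h TP63 was at 36.8 ± 0.737 TPM without and 26.8 ± 0.625 TPM with TGFβ1, and KRT17 at 5.41 ± 0.613 and 70.5 ± 1.06 TPM. The squamous list summed to between 47.3 and 50.1 TPM without and between 97.0 and 99.2 TPM with TGFβ1 at 48 h, most of the latter KRT17. In that list SOX2 was lower with TGFβ1 at 48 h (5.23 ± 0.477 TPM without and 0.432 ± 0.0557 TPM with it), as was the mean of TRIM29 (0.941 ± 0.174 and 0.642 ± 0.426 TPM). The 4 simple-epithelial keratins summed to between 1677.3 and 2435.6 TPM in untreated cells at 0 and 48 h. Of 5 fibroblast markers COL1A2 stayed under 1 TPM, and the list summed to between 192.3 and 206.8 TPM in untreated cells and between 2093.5 and 2391.1 TPM with TGFβ1 at 48 h, most of it COL1A1. In that list DCN was lower with TGFβ1 at 48 h (12.2 ± 1.13 TPM without and 1.47 ± 0.327 TPM with it), as was LUM (23.3 ± 0.885 and 9.19 ± 1.71 TPM). The part of these markers in the results was not tested. In bulk RNA, fewer cells that carry a transcript and less of it per cell cannot be told apart.

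Junction genes did not move as a single block. In the F-test of the arm differences at 8, 24 and 48 h, 30 of the 38 tested members passed an adjusted p of 0.01, beside 42.5% of all tested genes. By their mean difference over these times, 16 of the 30 were higher and 14 lower with TGFβ1. The 14 include CDH1, whose log2 differences of 0.32, 0.01 and -0.35 at 8, 24 and 48 h nearly cancel. The median of the 38 mean log2 differences was 0.06, beside -0.02 over all genes. Over all genes, 21.0% were higher and 21.5% lower by the same rule. Without the 4 libraries 35 members passed, 19 higher and 16 lower, beside 55.5% of all genes. The split depended on the scaling, among the members as among all genes. With library totals it was 12 higher and 18 lower, beside 14.7% and 32.1% of all genes. When the summed counts of GUSB, HPRT1 and GAPDH set the library size, a scaling also chosen after the data were seen, it was 20 higher and 7 lower, beside 54.6% and 7.48% of all genes.

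At 0 h no member was called by limma voom (0.0% of all genes), none had an unadjusted p under 0.05, and edgeR and DESeq2 called 0 members as well. At 8 h, 8 members were higher (9.12% of all genes) and 5 lower (7.26%), and with library totals 6 were higher (6.53%) and 9 lower (12.7%). At 24 h, 13 were higher (15.4%) and 10 lower (13.8%), or 10 (10.9%) and 12 (21.0%) with library totals and 18 (46.2%) and 4 (4.09%) with the 3 reference genes. At 48 h, 11 were higher (16.1%) and 14 lower (16.4%), or 18 (47.7%) and 6 (5.52%) with the 3 reference genes. Without the 4 libraries the counts were 12 higher and 10 lower at 8 h, 13 and 12 at 24 h, and 12 and 16 at 48 h, beside calls for 27.5%, 34.3% and 44.8% of all genes. The reference genes shifted the median of all genes by 0.35 at 24 h and 0.38 at 48 h (log2). A library size moves all genes of a library alike, so a direction taken relative to that shift is no test of the scaling. With the shift left in, 22 of the 23 members called at 24 h and 23 of the 25 called at 48 h kept their direction.

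**Figure D1:**
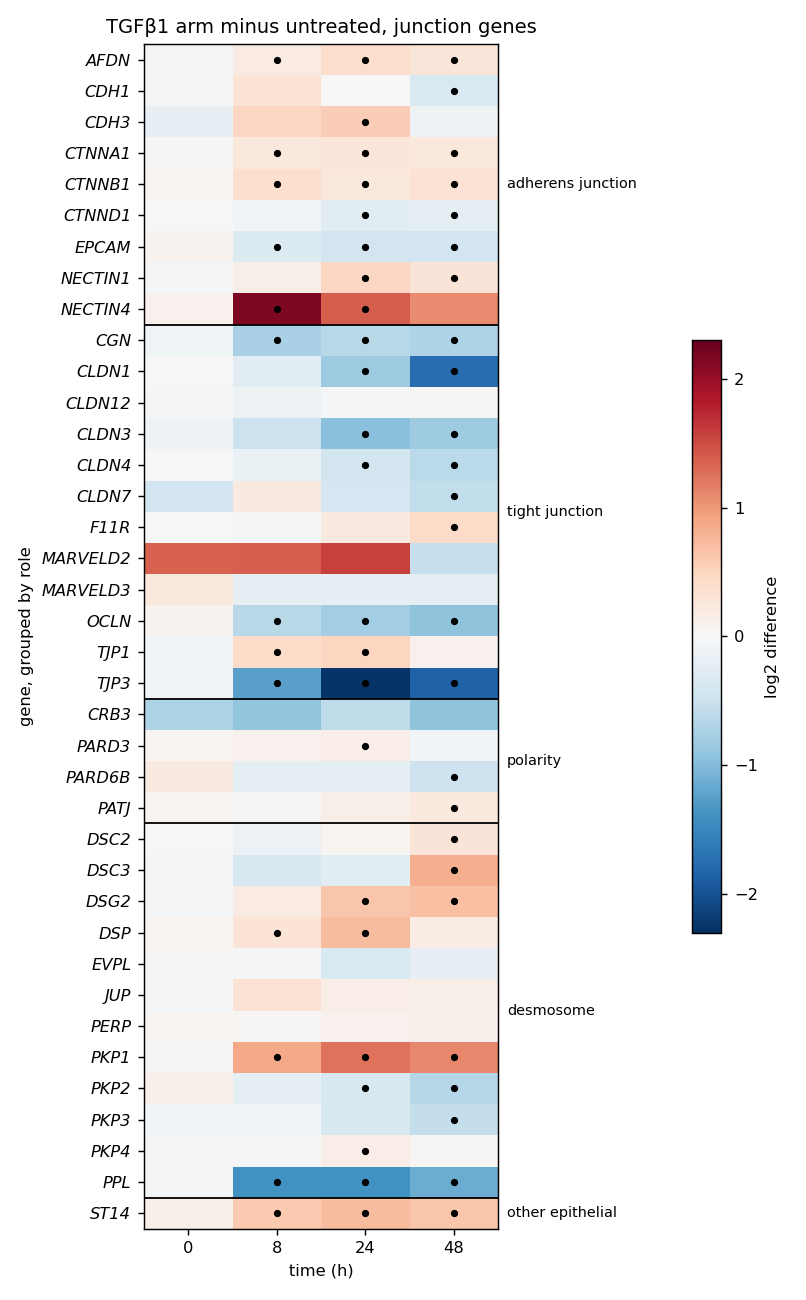
Log2 difference between the TGFβ1 arm and untreated cells (colour) at 0, 8, 24 and 48 h for the 38 tested junction genes, grouped by role. Dots mark an adjusted p under 0.01 in the limma voom fit. No gene passed at 0 h, the lowest called values belong to TJP3, CLDN1 and PPL, and the highest to NECTIN4 and PKP1. Among values called under either scaling, the 3 reference genes turned the sign of CDH1 and PARD3 at 48 h and of CTNND1 at 24 and 48 h.

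Before treatment, CTNNA1, CTNNB1 and DSG2 were the 3 members at 100 TPM or more, 17 lay between 10 and 100 TPM, 13 between 1 and 10 TPM, and 7 under 1 TPM. Among the 12 tight junction genes the lower calls outnumbered the higher ones, with 1 higher and 3 lower at 8 h, 1 and 6 at 24 h, and 1 and 7 at 48 h. Over all genes the shares were 9.12% and 7.26% at 8 h, 15.4% and 13.8% at 24 h, and 16.1% and 16.4% at 48 h. Calls by role were counted in the main limma voom fit only, not under the other scalings. The median log2 difference of the 12 was -0.59 at 48 h, beside -0.01 over all genes. Claudins, occludin, TJP3 and CGN made up the lower calls, and TJP1 and F11R the higher ones.

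CLDN1, a claudin that seals the paracellular space, was at 9.13, 11.9 and 10.9 TPM in untreated cells and 9.35, 11.9 and 10.1 TPM in the TGFβ1 arm at 0 h. At 48 h it was at 42.7, 49.6 and 44.3 TPM without and 14.3, 12.9 and 12.5 TPM with TGFβ1. The libraries of the arms overlapped at 0 h, and at 48 h every untreated library was above every TGFβ1 library. The log2 difference was not called at 8 h (-0.26 ± 0.09, adjusted p = 0.042), and was -0.84 ± 0.087 at 24 h and -1.76 ± 0.078 (adjusted p = 6.5e-14) at 48 h, which is 3.39-fold lower.

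TJP3 (ZO-3), a scaffold beneath the claudins, was at 1.43, 1.42 and 1.87 TPM in untreated cells and 1.08, 1.26 and 0.636 TPM with TGFβ1 at 8 h. At 48 h it was at 5.97, 5.08 and 6.26 TPM without and 2.09, 1.91 and 2.54 TPM with TGFβ1. All TGFβ1 libraries lay below the untreated ones at both times. TJP3 was 2.38-fold lower at 8 h (-1.25 ± 0.257, adjusted p = 0.00092), 4.79-fold lower at 24 h (-2.26 ± 0.198, adjusted p = 6.8e-09) and 3.64-fold lower at 48 h (-1.86 ± 0.183, adjusted p = 3.2e-08). The call at 8 h was lost in 3 of 38 alternatives, those on TPM or length-scaled counts.

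OCLN (occludin), a membrane protein of the tight junction strand, was at 2.46, 2.73 and 2.91 TPM in untreated cells and 2.55, 3.23 and 2.26 TPM in the TGFβ1 arm at 0 h. At 48 h it was at 4.6, 4.65 and 5.06 TPM without and 2.43, 1.92 and 2.16 TPM with TGFβ1. The arms overlapped at 0 h and were apart at 48 h, with the TGFβ1 libraries low. The log2 differences were -0.63 ± 0.141 at 8 h, -0.8 ± 0.144 at 24 h and -0.93 ± 0.139 (adjusted p = 1.1e-05) at 48 h, and the calls at 8 and 24 h were lost in 6 of 38 and 2 of 38 alternatives.

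CLDN4, the claudin on the list with the most transcript at 48 h, was then at 115.5, 110.0 and 110.8 TPM without and 77.3, 71.5 and 67.7 TPM with TGFβ1. The untreated libraries were again all higher. Its log2 difference was -0.42 ± 0.092 at 24 h, which shrank to -0.054 and was not called with the 3 reference genes as scale, and -0.62 ± 0.088 (adjusted p = 6.6e-06) at 48 h. CLDN3 was lower at 24 h (-0.97 ± 0.165) and 48 h (-0.81 ± 0.168, adjusted p = 0.00049).

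CLDN7 was at 2.26, 1.75 and 1.62 TPM in untreated cells and 1.82, 1.16 and 1.54 TPM in the TGFβ1 arm at 0 h. At 48 h it was at 6.3, 6.41 and 6.05 TPM without and 4.87, 4.94 and 3.41 TPM with TGFβ1. The arms overlapped at 0 h, though the TGFβ1 mean was already lower (1.87 and 1.5 TPM), and did not overlap at 48 h. The log2 difference of CLDN7 at 48 h was -0.56 ± 0.141 (adjusted p = 0.0028), a call lost in 6 of 38 alternatives. CGN (cingulin), which links the plaque to actomyosin, was lower at 8 h (-0.74 ± 0.097), 24 h (-0.64 ± 0.114) and 48 h (-0.71 ± 0.124, adjusted p = 7.6e-05). Its TPM overlapped between the arms at 48 h, at 1.53, 1.65 and 1.16 without and 0.961, 1.17 and 0.513 with TGFβ1, and all its calls were lost on the TPM scales and with length-scaled counts. With the 3 reference genes CGN was not called at 24 or 48 h either, nor was that at 24 h with the libraries of that time alone.

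TJP1 (ZO-1), the main plaque scaffold, went the other way from TJP3. It was at 18.3, 17.3 and 18.7 TPM in untreated cells and 21.7, 22.2 and 23.4 TPM with TGFβ1 at 8 h. The TGFβ1 libraries were all higher at 8 h. Its log2 difference was 0.42 ± 0.09 at 8 h and 0.5 ± 0.09 at 24 h, and was not called at 48 h (0.09 ± 0.091, adjusted p = 0.46). F11R (JAM-A), an adhesion molecule of the immunoglobulin family, was at 25.0, 26.4 and 31.0 TPM without and 32.4, 40.9 and 37.4 TPM with TGFβ1 at 48 h. These did not overlap, and the difference was 0.44 ± 0.074 (adjusted p = 4.5e-05), while at 24 h it was not called (0.21 ± 0.071, adjusted p = 0.023).

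CLDN12, MARVELD2 and MARVELD3 did not pass the F-test. MARVELD2 ranged from 0.0475 to 1.19 TPM over all libraries, and its difference of 1.36 ± 0.879 at 0 h shows how wide the error is at this level. CLDN12 differed by 0.02 ± 0.09 at 48 h.

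**Figure D2:**
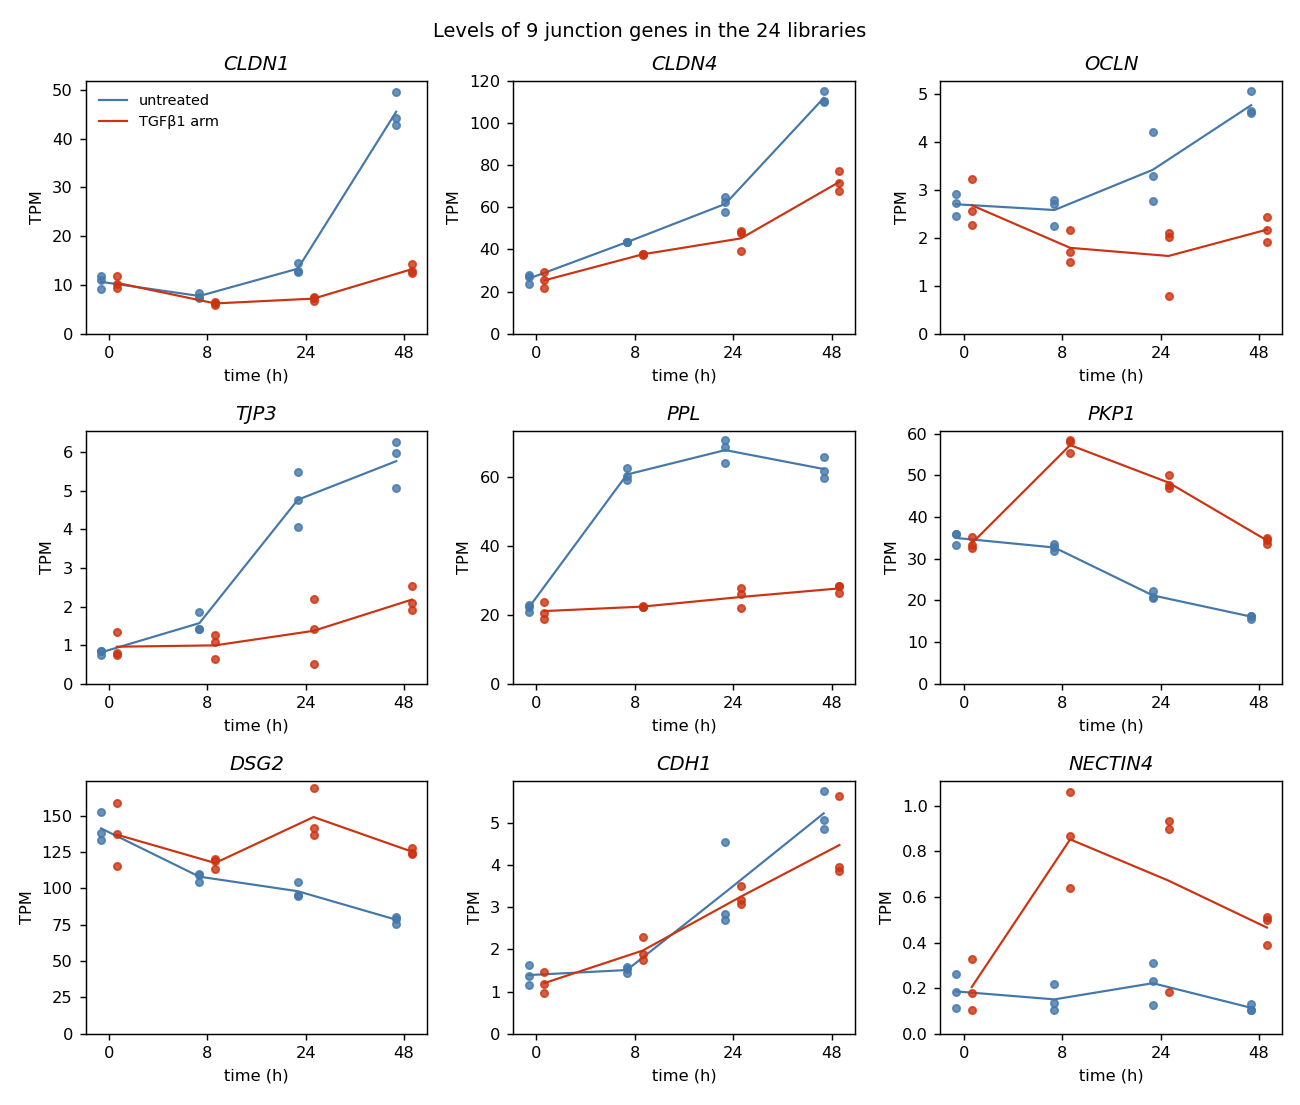
TPM (y axis, from 0) of 9 junction genes against time (x axis, 0, 8, 24 and 48 h), with 1 point per library, 3 per arm and time, and lines through the means. With TGFβ1, CLDN1, CLDN4, OCLN, TJP3 and PPL end lower than without it and PKP1 and DSG2 end higher, while CDH1 libraries of the arms overlap at 48 h.

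All 9 adherens junction genes were tested, with 4 higher and 1 lower at 8 h, 6 and 2 at 24 h, and 4 and 3 at 48 h. Over all genes the shares were 9.12% and 7.26%, 15.4% and 13.8%, and 16.1% and 16.4% at these times. Their median log2 difference was 0.25 at 48 h, beside -0.01 over all genes. At 48 h α-catenin, β-catenin, afadin and NECTIN1 were higher, and CDH1, EPCAM and CTNND1 lower.

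CDH1 (E-cadherin), the classical epithelial cadherin, was at 1.38, 1.15 and 1.64 TPM in untreated cells and 0.969, 1.17 and 1.46 TPM in the TGFβ1 arm at 0 h. At 48 h it was at 5.74, 4.86 and 5.06 TPM without and 3.95, 3.85 and 5.62 TPM with TGFβ1. The arms overlapped at both times, and both were higher at 48 h. The arm difference was 0.32 ± 0.096 (adjusted p = 0.016) at 8 h, 0.01 ± 0.085 at 24 h and -0.35 ± 0.076 (adjusted p = 0.00085) at 48 h. The call at 48 h was lost on the TPM scales and with length-scaled counts, and with the 3 reference genes the value was 0.044.

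EPCAM, an epithelial adhesion molecule, was at 28.1, 29.7 and 30.1 TPM in untreated cells and 21.6, 22.9 and 22.1 TPM with TGFβ1 at 8 h. At 48 h it was at 35.6, 35.7 and 37.0 TPM without and 24.1, 23.8 and 28.0 TPM with TGFβ1. The TGFβ1 libraries were the lower ones at both times. The log2 difference was -0.31 ± 0.073 at 8 h, -0.44 ± 0.072 at 24 h and -0.44 ± 0.074 (adjusted p = 5.3e-05) at 48 h, and none of these calls held with the 3 reference genes (-0.074 at 24 h and -0.046 at 48 h). The call at 8 h was lost in 4 of 38 alternatives. CDH3 (P-cadherin), between 0.649 and 1.89 TPM over all libraries, was called at 24 h (0.56 ± 0.143, adjusted p = 0.0036), and that call was lost in 8 of 38 alternatives, the fit without the 4 libraries among them.

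The catenins carry the cadherin tail to actin. CTNNB1 (β-catenin) was at 173.1, 176.4 and 175.0 TPM in untreated cells and 214.2, 221.4 and 227.1 TPM with TGFβ1 at 8 h, and at 180.0, 179.7 and 186.0 and 230.4, 225.9 and 231.3 TPM at 48 h. The TGFβ1 libraries were higher at both times. Its log2 difference was 0.39 ± 0.033 at 8 h, 0.24 ± 0.033 at 24 h and 0.33 ± 0.034 (adjusted p = 4.8e-08) at 48 h.

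CTNNA1 (α-catenin) differed by 0.25 ± 0.028, 0.28 ± 0.028 and 0.25 ± 0.029 (adjusted p = 3.5e-07) at 8, 24 and 48 h. CTNND1 (p120-catenin), which stabilises cadherins at the membrane, was at 128.2, 124.4 and 125.3 TPM without and 105.3, 108.8 and 110.1 TPM with TGFβ1 at 48 h. The TGFβ1 libraries of CTNND1 were lower. Its log2 difference was -0.25 ± 0.05 at 24 h and -0.2 ± 0.05 (adjusted p = 0.0024) at 48 h, and with the 3 reference genes these turned to 0.116 and 0.189.

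Nectins start cell contacts and bind afadin (AFDN). NECTIN4 was at 0.217, 0.105 and 0.133 TPM in untreated cells and 0.638, 1.06 and 0.866 TPM with TGFβ1 at 8 h, and at 24 h at 0.311, 0.23 and 0.126 and 0.184, 0.9 and 0.933 TPM. All TGFβ1 libraries were above the untreated ones at 8 h, but at 24 h replicate 1 lay within the untreated range. NECTIN4 was 4.41-fold higher at 8 h (2.14 ± 0.346, adjusted p = 6.9e-05) and 2.63-fold higher at 24 h (1.4 ± 0.36, adjusted p = 0.0037), and was not called at 48 h (1.09 ± 0.414, adjusted p = 0.039). The call at 24 h was lost in 9 of 38 alternatives.

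NECTIN1 was higher at 24 h (0.47 ± 0.078) and 48 h (0.29 ± 0.078, adjusted p = 0.0043), where the call was lost in 8 of 38 alternatives. AFDN was higher at 8 h (0.19 ± 0.052, adjusted p = 0.0092), a call lost in 27 of 38 alternatives, and at 24 h (0.41 ± 0.052) and 48 h (0.27 ± 0.051, adjusted p = 0.00017).

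The polarity genes set the border between the apical and lateral membrane. In the F-test 2 of the 4 were higher and 1 lower, beside 21.0% and 21.5% of all genes. None was called at 8 h, 1 was higher at 24 h, and 1 was higher and 1 lower at 48 h. Over all genes the shares were 9.12% and 7.26%, 15.4% and 13.8%, and 16.1% and 16.4% at these times. PARD3 was higher at 24 h (0.15 ± 0.04, adjusted p = 0.0038), PATJ was higher at 48 h (0.22 ± 0.059, adjusted p = 0.004) and PARD6B was lower at 48 h (-0.48 ± 0.134, adjusted p = 0.0061). Each of these calls was lost in 10 of 38 alternatives. CRB3, a small apical membrane protein, was at 1.05, 2.34 and 1.81 TPM without and 0.921, 0.642 and 0.822 TPM with TGFβ1 at 48 h. These did not overlap but did not pass (-0.93 ± 0.314, adjusted p = 0.021). At 0 h the arms of CRB3 overlapped, at 0.559, 0.23 and 0.818 TPM in untreated cells and 0.227, 0.218 and 0.256 TPM in the TGFβ1 arm.

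Of the 13 desmosome genes 12 were tested, with 2 higher and 1 lower at 8 h, 4 and 2 at 24 h, and 4 and 3 at 48 h. Over all genes the shares were 9.12% and 7.26%, 15.4% and 13.8%, and 16.1% and 16.4% at these times. Their median log2 difference at 48 h was 0.12, beside -0.01 over all genes. Members of the same family were called in opposite directions.

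PPL (periplakin), a plakin that links keratin filaments to the plaque, was at 22.4, 20.7 and 22.9 TPM in untreated cells and 20.6, 18.8 and 23.8 TPM in the TGFβ1 arm at 0 h. At 8 h it was at 62.6, 59.3 and 60.3 TPM without and 22.2, 22.3 and 22.7 TPM with TGFβ1. The arms overlapped at 0 h, and at 8 h the untreated libraries had risen (1.46 ± 0.078 from 0 h) while the TGFβ1 libraries were not called (0.09 ± 0.082, adjusted p = 0.4). PPL was 2.64-fold lower with TGFβ1 at 8 h (-1.4 ± 0.078, adjusted p = 1e-11), 2.62-fold lower at 24 h and 2.22-fold lower at 48 h (-1.15 ± 0.078, adjusted p = 9.1e-11). It passed in all 38 alternatives at each of these times.

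DSP (desmoplakin), the plakin that anchors keratin in desmosomes, was at 6.12, 6.06 and 5.66 TPM without and 8.66, 10.6 and 9.29 TPM with TGFβ1 at 24 h. The TGFβ1 libraries of DSP were all higher. On the log2 scale it differed by 0.32 ± 0.065 at 8 h, 0.72 ± 0.065 (adjusted p = 1.1e-08) at 24 h and 0.17 ± 0.064 (adjusted p = 0.041) at 48 h, where it was not called, and the call at 8 h was lost in 4 of 38 alternatives. EVPL (envoplakin), which pairs with periplakin, did not pass the F-test (adjusted p = 0.066).

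PKP1 (plakophilin 1), which clusters desmosomal cadherins in stratified epithelia, was at 36.0, 33.2 and 35.9 TPM in untreated cells and 33.3, 32.6 and 35.2 TPM in the TGFβ1 arm at 0 h. At 8 h it was at 33.5, 32.9 and 31.8 TPM without and 58.5, 58.0 and 55.3 TPM with TGFβ1, and at 48 h at 16.3, 15.6 and 16.3 and 34.6, 35.1 and 33.6 TPM. The TGFβ1 libraries were at their highest at 8 h, and by 48 h the untreated libraries lay below their 0 h level. PKP1 was 1.83-fold higher at 8 h (0.88 ± 0.05, adjusted p = 1.5e-11), 2.37-fold at 24 h and 2.16-fold at 48 h (1.11 ± 0.053, adjusted p = 3e-13). It passed in all 38 alternatives at each of these times.

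The other plakophilins did not follow PKP1. PKP2 was at 12.1, 12.6 and 12.4 TPM without and 8.34, 7.62 and 9.04 TPM with TGFβ1 at 48 h, and PKP3 at 30.6, 27.3 and 28.0 and 18.9, 21.2 and 17.3 TPM. For both, the TGFβ1 libraries were all lower. At 48 h PKP2 differed by -0.65 ± 0.061 (adjusted p = 1.5e-08), and PKP3 by -0.54 ± 0.142 (adjusted p = 0.0037), a call lost in 5 of 38 alternatives. PKP2 was also lower at 24 h (-0.37 ± 0.061), and with the 3 reference genes neither call held (-0.001 at 24 h and -0.26 at 48 h). PKP4 was higher at 24 h (0.15 ± 0.033), a call lost in 6 of 38 alternatives, and not called at 48 h (0.03 ± 0.034, adjusted p = 0.48).

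As a share of the summed TPM of PKP1 to PKP4, PKP1 held 32.3% ± 0.4 (SD, n = 3) in untreated cells at 0 h and 18.6% ± 0.213 at 48 h. In the TGFβ1 arm it held 32.4% ± 0.764 at 0 h, 43.8% ± 0.114 at 8 h and 38.5% ± 0.381 at 48 h. The PKP3 share at 48 h was 33.1% ± 1.16 without and 21.4% ± 1.6 with TGFβ1. Among the 5 claudins of the list, CLDN1 held 21.6% ± 1.67 without and 10.2% ± 0.186 with TGFβ1 at 48 h, and CLDN4 held 53.1% ± 1.19 and 55.7% ± 1.07. These shares are a description with no test.

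**Figure D3:**
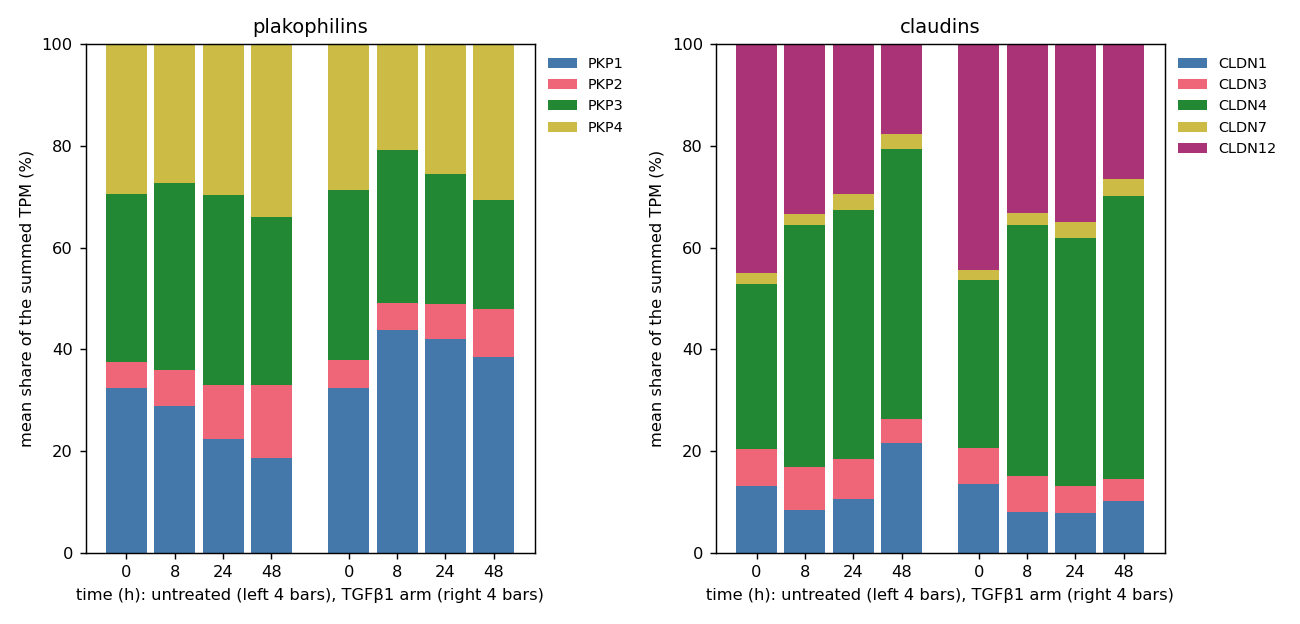
Mean share (%, y axis) of each plakophilin and each claudin in the summed TPM of its family members on the list, at 0, 8, 24 and 48 h in untreated cells (left 4 bars) and the TGFβ1 arm (right 4 bars), 3 libraries per bar. At 48 h PKP1 holds 18.6% without and 38.5% with TGFβ1, and CLDN1 holds 21.6% without and 10.2% with it.

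DSG2 (desmoglein 2), the desmosomal cadherin with the highest TPM here, was at 133.2, 152.8 and 137.7 TPM in untreated cells and 115.0, 158.6 and 137.3 TPM in the TGFβ1 arm at 0 h. At 48 h it was at 75.7, 79.2 and 80.4 TPM without and 124.4, 123.8 and 127.4 TPM with TGFβ1. The arms overlapped at 0 h and were apart at 48 h, with the untreated libraries low. DSG2 was not called at 8 h (0.18 ± 0.073, adjusted p = 0.085), and differed by 0.63 ± 0.073 at 24 h and 0.7 ± 0.074 (adjusted p = 1.1e-07) at 48 h.

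DSC3 (desmocollin 3) was at 1.04, 1.11 and 1.03 TPM in untreated cells and 0.613, 0.614 and 0.591 TPM with TGFβ1 at 8 h, and at 0.42, 0.379 and 0.32 and 0.734, 0.878 and 0.824 TPM at 48 h. The TGFβ1 libraries were the lower ones at 8 h and the higher ones at 48 h. The log2 difference at 8 h did not pass (-0.36 ± 0.136, adjusted p = 0.059), and at 48 h it was 0.84 ± 0.175 (adjusted p = 0.00051). DSC2 was called at 48 h (0.3 ± 0.088, adjusted p = 0.0086), a call lost in 19 of 38 alternatives. DSG3 did not exceed 0.0339 TPM and RAB25 did not exceed 0.264 TPM in any library.

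JUP (plakoglobin), shared by desmosomes and adherens junctions, went from 43.8, 37.0 and 42.6 TPM at 0 h to 184.8, 178.0 and 165.5 TPM at 48 h in untreated cells. In the TGFβ1 arm it went from 42.3, 31.3 and 43.0 to 201.7, 197.4 and 177.8 TPM. The arms overlapped at 48 h. JUP rose 4.06-fold without and 4.55-fold with TGFβ1, and the arms did not pass the F-test (adjusted p = 0.059). PERP, a desmosomal tetraspan protein, did not pass either (adjusted p = 0.039). ST14 (matriptase), a membrane protease of epithelia, was higher at 8 h (0.6 ± 0.145), 24 h (0.72 ± 0.131) and 48 h (0.64 ± 0.125, adjusted p = 0.00025), and the call at 8 h was lost in 6 of 38 alternatives.

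The change from 0 to 48 h was also followed within each arm. The code of the deposited tables changes between these times too, so time and code cannot be told apart. In untreated cells, 20 members were higher at 48 h than at 0 h (28.0% of all genes) and 8 lower (27.1%), with a median log2 change of 0.38 beside 0.01 over all genes. In the TGFβ1 arm, 17 were higher (29.8%) and 6 lower (28.1%), with a median of 0.21 beside 0.02. With the 3 reference genes the counts were 27 (56.5% of all genes) and 4 (7.61%) in untreated cells and 33 (74.6%) and 1 (4.21%) in the TGFβ1 arm, as that scaling moved the median of all genes to 0.53 and 0.97. Without the 4 libraries they were 20 (30.1%) and 9 (30.2%) in untreated cells and 19 (31.9%) and 7 (30.7%) in the TGFβ1 arm.

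Named members moved by unequal amounts in the arms over the 48 h. TJP3 rose by 3.26 ± 0.252 (log2) in untreated cells and by 1.46 ± 0.283 in the TGFβ1 arm, and CLDN4 by 2.0 ± 0.094 and 1.39 ± 0.096. CLDN1 rose by 1.98 ± 0.079 in untreated cells and was not called in the TGFβ1 arm (0.22 ± 0.085, adjusted p = 0.029), and CDH1 rose by 1.97 ± 0.097 and 1.64 ± 0.099. In the fit on counts CGN fell in both arms, with -0.74 ± 0.099 in untreated cells and -1.35 ± 0.119 with TGFβ1. In TPM the untreated CGN libraries overlapped, at 1.99, 1.23 and 1.49 at 0 h and 1.53, 1.65 and 1.16 at 48 h. PKP1 fell in untreated cells (-1.24 ± 0.053) and was not called with TGFβ1 (-0.08 ± 0.052, adjusted p = 0.16). With the 3 reference genes, CGN was not called in untreated cells (-0.22), while in the TGFβ1 arm CLDN1 (1.17) and PKP1 (0.86) were called higher. These changes share their 48 h libraries with the arm differences at 48 h.

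**Figure D4:**
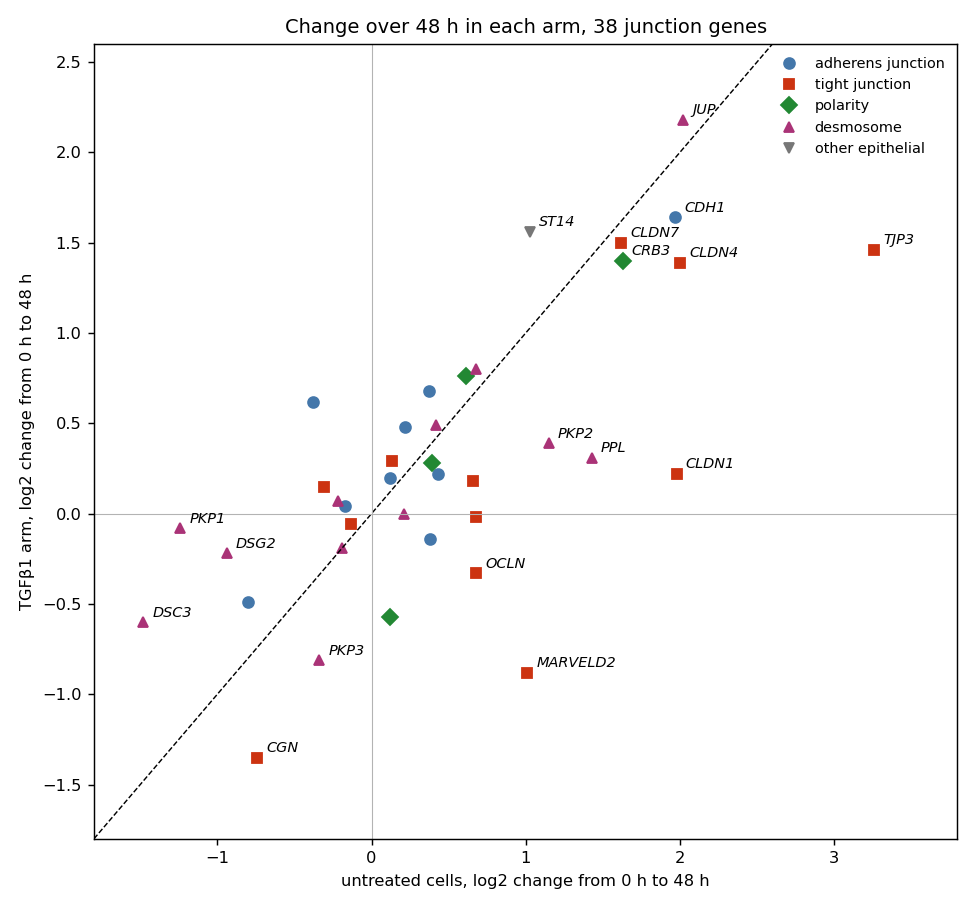
Log2 change from 0 to 48 h in untreated cells (x axis) against that in the TGFβ1 arm (y axis) for the 38 tested junction genes, 1 point per gene, marked by role, with a dashed line where both changes are equal. JUP and CDH1 lie near the line, CLDN1, TJP3 and PPL below it, and PKP1 and DSG2 above it.

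The arm difference at 8 h minus that at 0 h compares libraries with the same code within each arm. By this measure 3 members were higher (5.05% of all genes) and 2 lower (2.84%), and without the 4 libraries 5 were higher (7.23%) and 4 lower (4.71%). PKP1 (0.92 ± 0.071), CTNNB1 (0.32 ± 0.048) and CTNNA1 (0.22 ± 0.04) were higher, and PPL (-1.37 ± 0.113) and CGN (-0.64 ± 0.134) were lower. Leaving out replicate 3 of the TGFβ1 arm at 0 h gave 8 members. Library totals gave 2 higher (4.23% of all genes) and 4 lower (4.03%), and upper-quartile factors 3 (4.53%) and 4 (3.58%). The 3 reference genes gave 3 (6.44%) and 1 (1.1%), without the calls of CTNNA1 (0.31), CTNNB1 (0.41) and CGN (-0.55), and DESeq2 gave 5 (5.82%) and 6 (4.09%).

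From 8 to 48 h the arm difference moved upwards for 3 members (6.69% of all genes), namely F11R, DSG2 and DSC3, and downwards for 3 (7.34%), namely CDH1, CLDN1 and PKP2. CLDN1 moved by -1.5 ± 0.119 (adjusted p = 6.4e-09), and DSC3 by 1.2 ± 0.222 (adjusted p = 0.00039). Without the 4 libraries the counts were 7 (12.3%) and 7 (13.0%), and with the 3 reference genes 9 (24.0%) and 1 (2.44%), where CDH1 (-0.33) and PKP2 (-0.09) were not called.

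Genes of the same structures outside the list were counted as well, and so were connexin and pannexin genes. At 48 h 16.1% of all genes were higher and 16.4% lower. Of 31 tested tight junction and polarity genes, 9 were higher and 10 lower at 48 h, with a median log2 difference of -0.04 beside -0.01 over all genes. Among them CLDN14 was higher (3.47 ± 0.202) and CLDN11 lower (-1.54 ± 0.07). Of 16 tested adherens junction and desmosome genes, 3 were higher and 2 lower at 48 h, with a median of -0.08. Of 7 tested connexin and pannexin genes, 4 were higher and 2 lower, with a median of 0.51. The connexins GJA1 and GJC1 and the pannexins PANX1 (0.51 ± 0.057) and PANX2 (0.77 ± 0.154) were the higher ones. The connexins GJB2 (-0.51 ± 0.062) and GJB5 (-1.39 ± 0.359) were the lower ones. GJA1 (connexin 43) was at 31.6 ± 1.02 TPM (SD, n = 3) without and 108.3 ± 3.99 TPM with TGFβ1 at 48 h (1.79 ± 0.078, adjusted p = 5.4e-14).

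Of 13 tested epithelial regulators, 3 were higher and 7 lower at 48 h, with a median of -0.4, beside 16.1% and 16.4% of all genes. This list holds splicing factors (ESRP1 and ESRP2), protease inhibitors (SPINT1 and SPINT2) and the protease PRSS8 beside transcription factors. The higher calls were ESRP1 (0.74 ± 0.155), SPINT1 (0.37 ± 0.072) and KLF4 (0.21 ± 0.057), and ELF3 was among the lower ones (-1.23 ± 0.083). ESRP1 had been lower at 8 h (-0.52 ± 0.129, adjusted p = 0.0045) and was not called at 24 h (0.01 ± 0.105). TP63 was higher at 8 h (0.8 ± 0.066) and 24 h (1.02 ± 0.067) and lower at 48 h (-0.49 ± 0.065). Of 9 tested repressors of junction genes, 3 were higher and none lower at 48 h, with a median of 0.26. SNAI1 was at 1.23, 1.4 and 1.43 TPM without and 9.94, 10.3 and 9.22 TPM with TGFβ1 at 48 h. The log2 difference of SNAI1 was 2.88 ± 0.113 (adjusted p = 8.8e-15), and that of SNAI2 was 1.55 ± 0.057 (adjusted p = 3.6e-15), with TCF4 at 0.52 ± 0.07. ZEB1 was not called (0.16 ± 0.089, adjusted p = 0.17), and TWIST1 was lower at 24 h (-0.82 ± 0.099).

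SNAI and ZEB factors are known to bind the E-box CACCTG, so the 250 bases before each start site were searched for CACCTG and its reverse complement CAGGTG, which covers both strands. RefSeq promoters (GRCh38.p14) matched 26 of the 40 members, and 10 of these (38.5%) held the motif, beside 17.5% of all 35116 promoter entries, noncoding genes included. By the F-test call, 5 of 11 higher, 2 of 7 lower and 2 of 6 uncalled members held it. The 14 members without an entry include CDH1, EPCAM, CTNND1, PPL, PKP2, PKP3 and PARD6B. These were lower by that call, so the split leaves out many of the lower members. For CDH1 that direction is only the sign of a mean over 0.32, 0.01 and -0.35 (log2) at 8, 24 and 48 h. A match is a description of letters, not a binding site.

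Sequences are shown for the called members whose window touches no annotated exon, 5′ to 3′ on the strand of the gene, with the motif in capitals, to set higher and lower members side by side. The higher members are DSG2 (chr18:31497927-31498176, plus strand), NECTIN4 (chr1:161089559-161089808, minus strand) and AFDN (chr6:167827385-167827634, plus strand), and the lower ones are CLDN3 (chr7:73770271-73770520, minus strand) and CGN (chr1:151511137-151511386, plus strand).
DSG2: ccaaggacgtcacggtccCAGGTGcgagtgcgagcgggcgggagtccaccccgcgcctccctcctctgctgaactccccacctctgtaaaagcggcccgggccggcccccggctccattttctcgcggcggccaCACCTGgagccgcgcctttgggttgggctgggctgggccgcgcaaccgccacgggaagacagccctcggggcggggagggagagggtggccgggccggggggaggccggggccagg
NECTIN4: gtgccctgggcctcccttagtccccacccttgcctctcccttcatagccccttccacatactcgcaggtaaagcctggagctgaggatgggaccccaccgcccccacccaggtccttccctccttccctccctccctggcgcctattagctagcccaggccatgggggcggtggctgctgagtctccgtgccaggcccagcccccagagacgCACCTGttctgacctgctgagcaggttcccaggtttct
AFDN: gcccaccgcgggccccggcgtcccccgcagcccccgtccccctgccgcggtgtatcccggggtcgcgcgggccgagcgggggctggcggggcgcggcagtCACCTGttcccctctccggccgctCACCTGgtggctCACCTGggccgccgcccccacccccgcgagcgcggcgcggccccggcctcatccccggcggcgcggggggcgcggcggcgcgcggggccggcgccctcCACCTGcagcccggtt
CLDN3: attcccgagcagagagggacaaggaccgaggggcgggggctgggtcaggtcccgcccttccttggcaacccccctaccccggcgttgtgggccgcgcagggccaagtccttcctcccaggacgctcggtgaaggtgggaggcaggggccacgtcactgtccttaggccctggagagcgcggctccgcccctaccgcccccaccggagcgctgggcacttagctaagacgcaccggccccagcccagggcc
CGN: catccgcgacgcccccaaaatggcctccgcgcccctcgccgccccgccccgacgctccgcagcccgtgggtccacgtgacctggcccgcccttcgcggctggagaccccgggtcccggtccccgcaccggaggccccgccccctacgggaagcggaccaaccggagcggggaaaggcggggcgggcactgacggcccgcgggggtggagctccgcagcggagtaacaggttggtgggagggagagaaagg

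Relative to the start site, the motif began at -232 and -116 in DSG2, at -38 in NECTIN4 and at -150, -126, -114 and -16 in AFDN, and these letters were not in the windows of CLDN3 and CGN. OCLN and CLDN7, which were lower, held the motif too, at -133 and at -174, -135, -20 and -9.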

How the data were processed

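RNA-Seq covered 24 libraries of SK-MES-1 cells. The authors quantified GRCh38 transcripts with kallisto 0.43.0 and deposited estimated counts, TPM and effective lengths per transcript. Samples were grouped by their titles. Of 173259 transcripts, 155518 (89.8%) matched GENCODE by identifier, and 17741 were left out.

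Gene sums of the estimated counts, rounded to whole numbers, were kept with at least 10 counts in at least 3 libraries and tested with limma 3.58.1 (voom, TMM factors, 1 mean per group, R 4.3.3), following the study's choice of limma voom. Adjusted p is Benjamini-Hochberg over all tested genes, and a gene was called below 0.01. Errors are SE of log2 differences from that fit (given as value ± SE). P-values measure the spread between replicates whose separate origin is not described further. The fit was tested on simulated data.

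Alternatives were edgeR 4.0.16, DESeq2 1.42.0, counts scaled by length, limma on log2 TPM with a pseudocount of 1 or 0.1, other scalings, filters and thresholds, a replicate block, fewer libraries and each library left out. Values per library were given for the core junction proteins that results turn on and for members called with at least 2-fold difference. Genes outside the list were to be given by counts, and those named were chosen after their values were seen. Members and lists were chosen with earlier results of these data known. Figures used matplotlib 3.10.9. A planned scaling by a set of reference genes is not reported here, and 3 reference genes (GUSB, HPRT1 and GAPDH) took its place after the data were seen.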

Additional observations from a re-analysis of the deposited data

Results flagged for a closer look

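For 6 junction genes the difference between the arms itself changed from 8 to 48 h (limma voom, adjusted p below 0.01 for that change). The log2 change of the difference was -1.5 for CLDN1, -0.67 for CDH1 and -0.43 for PKP2, which moved towards lower values with TGFβ1 relative to untreated cells. It was 1.2 for DSC3, 0.52 for DSG2 and 0.46 for F11R, which moved the other way. The codes of the deposited tables also change between these times, so the change and the code cannot be told apart.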

How the results depend on the processing

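Of 4326 values of single members at 8, 24 and 48 h under the alternatives, 4073 stayed on their side of the threshold, 178 lost the call and 71 gained it. Of the 4073, 48 uncalled values changed sign. Of values called in either fit 4 turned, with the 3 reference genes as library size, namely CTNND1 at 24 h (0.116) and, at 48 h, CDH1 (0.044), PARD3 (0.336) and CTNND1 (0.189). That scaling gave 10 members from 8 to 48 h (26.4% of all genes). With an added 2-fold limit the called members numbered 4 over the 3 times, 3 at 8 h, 4 at 24 h, 4 at 48 h, 1 for the change from 0 h at 8 h, 12 in untreated cells, 8 in the TGFβ1 arm and 2 from 8 to 48 h, since the limit removes smaller differences. At an adjusted p below 0.05 the change from 0 h at 8 h gave 12 and the change from 8 to 48 h gave 13. On log2(TPM + 1) there were 7 at 8 h (2151 of 17453 genes) and 3 for the change from 0 h. On log2(TPM + 0.1) there were 6 at 8 h (2116 genes), 16 at 48 h (4795 genes) and 3 for the change from 0 h. Length-scaled counts gave 3 and DESeq2 11 (9.91% of all genes) for the change from 0 h at 8 h. Fits on the libraries of the tested times gave 21 at 8 h (5304 of 16574 genes), 13 at 24 h (2769 of 16458 genes) and 16 from 8 to 48 h. Taken as a change from 0 h, 24 h gave 14 and 48 h gave 16. Without the 4 libraries that stood apart there were 22 at 8 h (27.5% of all genes), 9 for the change from 0 h (11.9%) and 14 from 8 to 48 h (25.3%). Leaving out each library gave 4 to 8 for the change from 0 h at 8 h, with 8 without replicate 3 of the TGFβ1 arm at 0 h. For counts that stand here without it, the share of all genes is not given. The cause of these shifts was not tested. Deviations of same-numbered libraries correlated by 0.072 to 0.296 at 0 h, -0.047 to -0.009 at 8 h, 0.089 to 0.301 at 24 h and -0.016 to 0.092 at 48 h, highest for the replicate 2 libraries that stood apart at 0 and 24 h, and 11 of 24 libraries correlated best with their own number. By time these were 5 of 6 at 0 h, 0 of 6 at 8 h, 4 of 6 at 24 h and 2 of 6 at 48 h. Same-numbered libraries thus shared deviations at 0 and 24 h but not at 8 and 48 h. The numbers were not taken to pair the samples in the main fit. With the replicate block 31 members passed over the 3 times (8092 of 17453 genes), 13 at 8 h (3198 genes), 25 at 24 h (5657) and 25 at 48 h (6226). It gave 7 for the change from 0 h, 28 in untreated cells (10056 genes), 24 in the TGFβ1 arm (10560) and 8 from 8 to 48 h. Depth limits members under 1 TPM, such as MARVELD2 and NECTIN4.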
